A study of Mus musculus with 7 samples.

Results

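The ciliated airway nuclei of these lung tumors were 64 of the 38254 nuclei that passed the filters, or 0.167%. A nucleus was counted as ciliated when at least 4 of 10 genes (Foxj1, Tmem212, Ccdc153, Rsph1, Dnah12, Dnah3, Dnah6, Spag16, Cfap44 and Zbbx, here the rule genes) had a transcript and their summed transcripts made up at least 0.3% of its total. The nuclei were thus chosen by measured values, and everything that sets them apart from the other 38190 nuclei is given below as a description, without a test. They came from tumors of small cell lung cancer in 4 male mice, sampled as fresh-frozen tissue at the endpoint and read by split-pool barcoding of single nuclei. The animals labelled RP1 and RP2 carried Rb1 fl/fl and Trp53 fl/fl, and those labelled RPC1 and RPC2 carried the same alleles together with a Casp8 deletion, which the labels write as Casp8-/- and the study describes as conditional. All 4 had inhaled an adenovirus with Cre recombinase under the CMV promoter at 8 to 12 weeks of age. That promoter is active in many cell types, and gene counts do not show which nuclei had recombined, so the ciliated nuclei of RPC animals cannot be taken as Casp8-deleted. The 7 sequencing libraries each pooled all 4 animals, the animals shared 0 barcodes, and the animal is the replicate throughout.

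Multiciliated cells line the airways together with club cells and basal cells and move mucus with beating cilia. The core of a motile cilium, the axoneme, consists of microtubule doublets around a central pair, with outer and inner dynein arms as motors, radial spokes, and nexin links that hold neighboring doublets together. Cells enter this fate through the regulators Gmnc and Mcidas, build many centrioles on structures called deuterosomes, and then switch on axoneme genes through Foxj1 and the Rfx factors, which bind a promoter element known as the X-box.

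Sequences are shown here because a short run of letters was more frequent in promoters of cilium genes than in all promoters. The RefSeq promoter table (build GRCm38.p6, 250 bases before to 50 after the gene start) held 7 of the 10 rule genes and lacked Foxj1, Dnah3 and Rsph1. The letters GTTNCCNNG, the first 9 of an X-box, were searched on both strands. They were found in 4529 of 27025 promoters (16.8%), in 3 of the 7 rule gene promoters (42.9%), in 25 of the 53 available promoters of 73 axoneme genes (47.2%) and in 11 of 18 promoters of intraflagellar transport genes (61.1%). Of 9 available promoters of neuroendocrine tumor markers, 1 held them (11.1%). The letters TGTTTAC, a forkhead core, were in 959 of all promoters (3.55%), in 0 of the 7 rule gene promoters and in 1 of the 53 axoneme promoters (1.89%). A match is a run of letters and not a measured binding site. The 3 rule gene promoters with a match lie at chr9:44240427-44240726, plus strand (Ccdc153), chr1:69826720-69827019, plus strand (Spag16) and chr3:75143723-75144022, minus strand (Zbbx), and Dnah12 at chr14:26691304-26691603, plus strand is shown beside them as a promoter without a match. Each is printed on the strand of the gene, and capitals mark the match. The Spag16 match reads on the opposite strand, and the 2 Zbbx matches overlap and face each other.
Ccdc153: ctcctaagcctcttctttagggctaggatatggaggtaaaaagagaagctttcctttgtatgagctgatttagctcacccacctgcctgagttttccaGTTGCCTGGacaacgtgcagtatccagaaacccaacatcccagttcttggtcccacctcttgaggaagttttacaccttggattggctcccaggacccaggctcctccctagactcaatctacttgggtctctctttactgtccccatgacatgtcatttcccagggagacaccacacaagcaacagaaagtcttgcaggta
Spag16: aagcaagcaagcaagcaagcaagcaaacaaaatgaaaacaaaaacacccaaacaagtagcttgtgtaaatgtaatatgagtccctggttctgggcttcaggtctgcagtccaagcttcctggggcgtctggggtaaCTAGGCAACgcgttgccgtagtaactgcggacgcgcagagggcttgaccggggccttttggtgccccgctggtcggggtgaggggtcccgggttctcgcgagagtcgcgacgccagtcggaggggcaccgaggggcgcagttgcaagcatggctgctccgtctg
Zbbx: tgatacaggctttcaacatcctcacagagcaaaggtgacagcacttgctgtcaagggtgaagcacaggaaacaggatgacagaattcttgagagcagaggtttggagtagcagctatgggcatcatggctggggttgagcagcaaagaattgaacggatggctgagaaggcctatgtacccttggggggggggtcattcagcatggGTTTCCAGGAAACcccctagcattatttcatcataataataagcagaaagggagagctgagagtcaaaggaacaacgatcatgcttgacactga
Dnah12: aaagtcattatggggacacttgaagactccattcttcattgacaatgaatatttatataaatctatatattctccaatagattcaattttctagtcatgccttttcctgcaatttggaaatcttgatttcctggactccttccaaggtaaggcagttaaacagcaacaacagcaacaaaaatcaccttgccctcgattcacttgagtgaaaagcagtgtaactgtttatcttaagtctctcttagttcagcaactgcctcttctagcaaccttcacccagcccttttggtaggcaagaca

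The same letters were also present near the start of genes that the rule did not use. Of the 20 genes outside the rule that led the ciliated nuclei (listed further below), 16 were in the promoter table and 8 of those held GTTNCCNNG (50%). Windows of 29 bases around the matches nearest to the gene start are printed 5′ to 3′ on the strand of the match, with the match in capitals, from Lrrc43 at chr5:123489289-123489317 (plus strand), Cfap100 at chr6:90428453-90428481 (minus strand), Lrriq1 at chr10:103236323-103236351 (minus strand), Spef2 at chr15:9748842-9748870 (minus strand) and Cdhr3 at chr12:33092866-33092894 (plus strand), all in build GRCm38.p6. The match began 26 bases before the gene start in Lrrc43, 19 before it in Lrriq1 and 9 before it in Cdhr3, and within the first 10 bases after it in Cfap100 and Spef2.
Lrrc43: gcgtctggccGTTGCCTAGcaacgagctg
Cfap100: tgtgagaataGTTGCCTTGgcgtcgcaaa
Lrriq1: cagattggctGTTGCCATGgctacggttt
Spef2: ttagcaactgGTTGCCCTGggcgacggga
Cdhr3: tcctgactttGTTGCCAGGcaggaaacca

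The deposited matrices held between 32299909 transcripts in 8413 nuclei of RP1 and 72446861 in 10865 nuclei of RPC1. The 64 ciliated nuclei held 585948 transcripts, of which RP1 gave 68978, RP2 284975, RPC1 58927 and RPC2 173068. Levels are given as CPM, the transcripts of a gene scaled to a total of 1000000 transcripts, after summing the ciliated or the other nuclei of an animal. CPM compares a gene between groups of nuclei, and not 1 gene with another, since longer genes can give more transcripts in nuclei. Casp8, the additional target in RPC, was at 59.1 and 63.0 CPM in the other nuclei of RP1 and RP2 and at 93.3 and 67.7 CPM in those of RPC1 and RPC2. It was thus not lower in the RPC animals, and since the counts are per gene they do not show whether the deleted exons were read. RP and RPC therefore stand for the labels of the animals. In the ciliated nuclei Casp8 had 1 and 8 transcripts in RP and 3 and 10 in RPC.

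Ciliated nuclei were found in every animal. RP1 had 10 of 8363 (0.12%, exact 95% binomial interval 0.0574 to 0.22%), RP2 had 28 of 8874 (0.316%, 0.21 to 0.456%), RPC1 had 7 of 10853 (0.0645%, 0.0259 to 0.133%) and RPC2 had 19 of 10164 (0.187%, 0.113 to 0.292%). These intervals cover counting error only. The highest share was in an RP animal and the lowest in an RPC animal, and the genotypes overlapped, since RPC2 lay between RP1 and RP2. The RP animals averaged 0.218% ± 0.139 and the RPC animals 0.126% ± 0.0866 (SD, n = 2 each), and the difference, RPC minus RP, of -0.0918 percentage points was not larger than the spread between animals (two-sided exact permutation test over animals, p = 0.667, where the smallest p of 2 against 2 animals is 0.333). Without RP2 the direction turned, with RPC 0.00614 percentage points above RP.

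**Figure D1:**
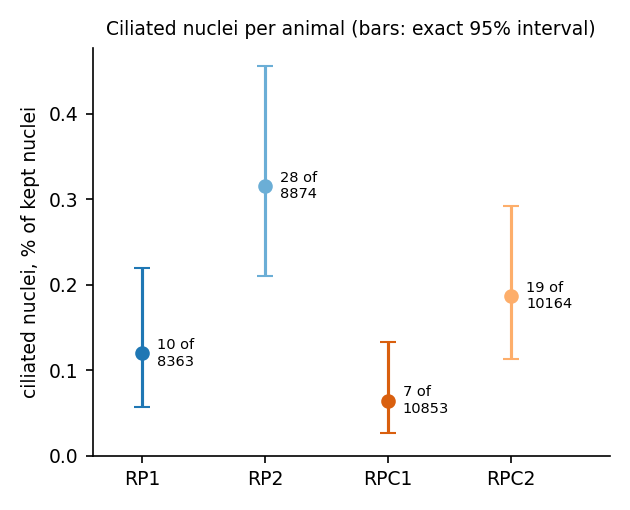
Ciliated nuclei as a percentage of the kept nuclei (vertical axis, from 0) in each of the 4 animals, with exact 95% binomial intervals as bars and the counts beside the points. The shares run from 0.0645% in RPC1 to 0.316% in RP2, and RPC2 lies between both RP animals.

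The first-round wells of each animal also held few ciliated nuclei each, and the difference between wells was not tested. In RPC2, 14 of 5285 nuclei of one well and 5 of 4879 of the other were ciliated (0.265% and 0.102%, with intervals of 0.145 to 0.444% and 0.0333 to 0.239%). RPC1 had 4 of 4018, 0 of 3502 and 3 of 3333 nuclei in its 3 wells. The 0 of 3502 nuclei allow a share of up to 0.105% by the exact interval. RP1 and RP2 had 2 wells each with 4 and 6, and 15 and 13, ciliated nuclei.

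The selection was sharp in most of the chosen nuclei. Of the 64, 14 had transcripts of all 10 rule genes, 46 had at least 8, and 3 had only 4 or 5. The rule genes made up between 0.311% and 2.97% of the transcripts of a nucleus, with a median of 1.16%. Just inside the limit, 8 nuclei were under 0.4%, of which 6 were in RP2. Just outside it lay 4 nuclei with at least 4 rule genes and 0.2 to 0.3% of their transcripts, the highest at 0.292% in RPC1, and 1 nucleus of RPC1 with 3 rule genes and more than 0.3%. In RP1, RP2, RPC1 and RPC2, 4, 11, 50 and 60 nuclei had at least 4 rule genes and failed on the percentage. Some of these held many transcripts. An RP2 nucleus of 40853 transcripts had 9 rule genes at 0.162%, and the RPC1 nucleus at 0.292% had 9 on 42475 transcripts. Foxj1, the transcription factor that switches on motile cilium genes, was seen in only 34 of the 64 nuclei, whereas Dnah12, an inner arm dynein heavy chain, was seen in 63.

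**Figure D2:**
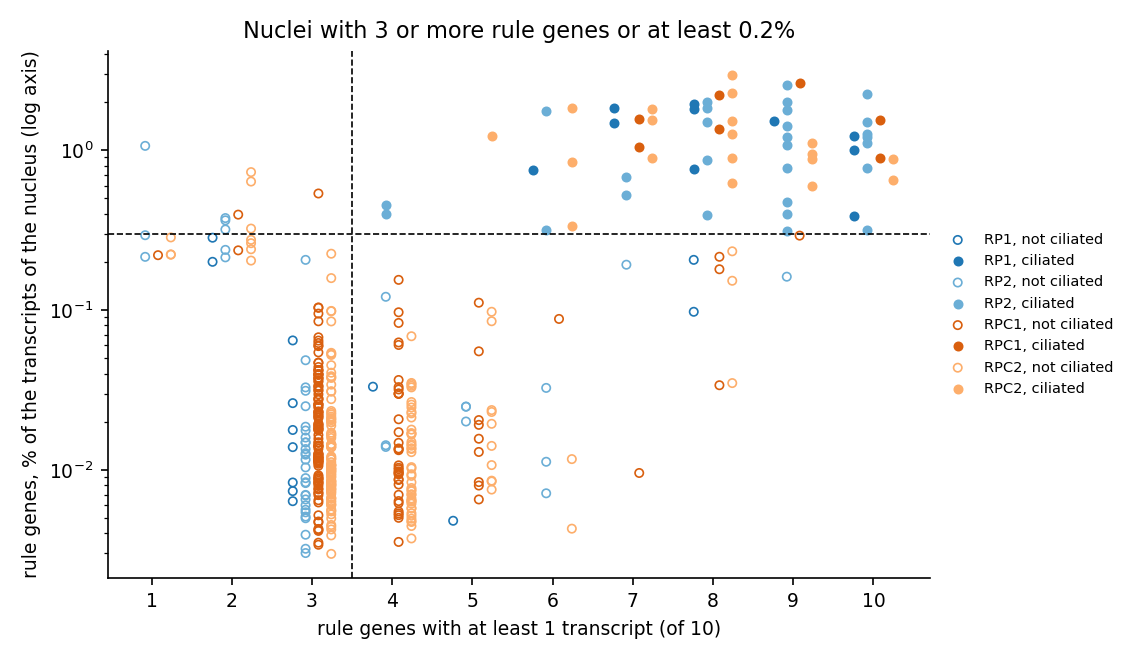
Each point is a nucleus, by the number of rule genes with a transcript (horizontal axis) and the percentage of its transcripts from rule genes (vertical axis, log scale), for nuclei with 3 or more rule genes or at least 0.2%. Filled points are the 64 ciliated nuclei, open points other nuclei, and the dashed lines mark the limits of 4 genes and 0.3%. Most filled points lie at 7 to 10 genes, and the open points with 4 or more genes lie mostly far below 0.3%.

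Ciliated nuclei were deeper than the others. Their median depth in the 4 animals, always given in the order RP1, RP2, RPC1 and RPC2, was 4349.5, 5136, 9641 and 5365 transcripts, against 2254, 2216.5, 3390.5 and 2765 in the other nuclei, a ratio of 1.93 to 2.84. Single nuclei ran from 807 to 74984 transcripts. The rule asks for transcripts of at least 4 rule genes, which favors deep nuclei, and its part in the ratio of depths was not tested. Nuclei above 4 times the median depth of their animal (here deep nuclei) were 16 of the 64, spread as 1, 10, 1 and 4 over the animals, and they held 62.8% of all ciliated transcripts and 75.6% of those of RP2. Deep nuclei had a median of 1.41% of their transcripts from axoneme genes outside the rule and 0.442% from neuroendocrine tumor markers. The other 48 had 3.05% and 0.125%. Transcripts of Mki67, a gene of dividing cells, were in 16 of the 16 deep nuclei and in 23 of the 48 others. These counts were not matched for depth, with medians of 17391 and 3829 transcripts. Outside the ciliated class, 59.5, 55.2, 76.0 and 77.8% of nuclei held an Mki67 transcript in the 4 animals, also without thinning. No doublets were removed, and the part of doublets in these values was not tested. Values without the deep nuclei are given beside some of the results they move, and not beside all.

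The rule genes themselves were far above the level of the other nuclei, as their choice requires. Dnah12 stood at 2870, 2790, 8010 and 4050 CPM in the ciliated nuclei of the 4 animals, and at 2.58, 6.24, 5.41 and 5.6 CPM in the other nuclei. In RPC1, 171 of its 472 transcripts came from 1 nucleus. Foxj1 was at 304, 84.2, 187 and 110 CPM against 2.89, 2.16, 3.99 and 3.99 CPM. Tmem212, a membrane protein gene used to mark ciliated cells, was at 1116, 568, 1154 and 716 CPM against 7.83, 18, 15 and 6.24 CPM. The smallest lead was that of Rsph1, a radial spoke head gene, at 130, 133, 119 and 75.1 CPM against 10.4, 9.0, 13.9 and 13.9 CPM.

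These few nuclei held a large part of what was read from several rule genes in a whole tumor. They held 70.5, 78.4, 55.3 and 68.9% of the Dnah12 transcripts of RP1, RP2, RPC1 and RPC2, and 59.3, 65.7, 55.0 and 62.3% of those of Ccdc153. For Zbbx the percentages were 37.1 and 46.1 in RP and 2.44 and 6.79 in RPC. Rsph1 was mostly read elsewhere, with 0.709 to 10.7% in ciliated nuclei.

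**Figure D3:**
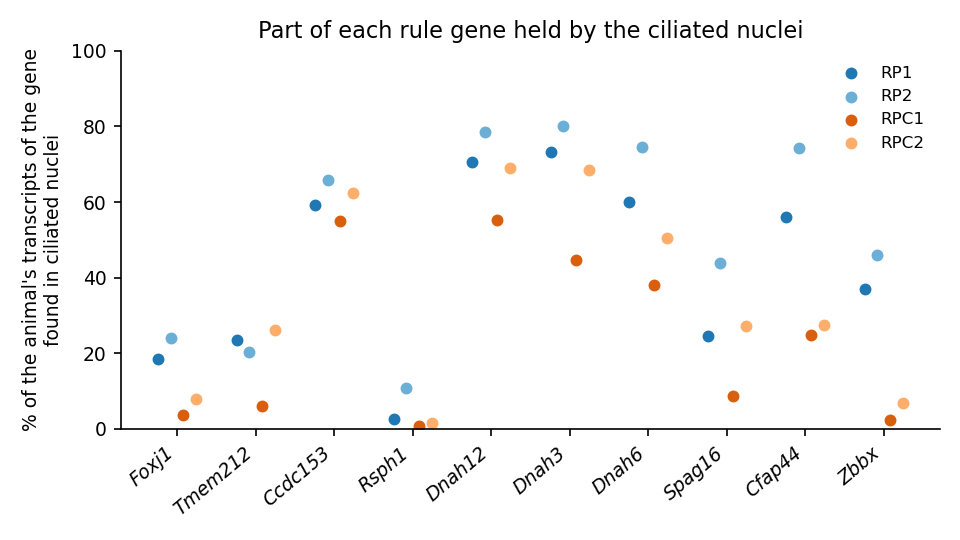
Percentage of all transcripts of each rule gene in an animal that was found in its ciliated nuclei (vertical axis, 0 to 100), by gene, with 1 point per animal. Dnah12, Dnah3 and Ccdc153 lie highest and Rsph1 lowest, and for Zbbx both RP animals lie above both RPC animals.

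After each nucleus was thinned to 1000 transcripts, Dnah12 was present in 9 of 9, 27 of 28, 7 of 7 and 17 of 19 ciliated nuclei, with 1 shallower nucleus left out in RP1. It was present in 0.238, 0.524, 0.256 and 0.371% of the other nuclei. Endothelial nuclei, a type without motile cilia, held a Dnah12 transcript in 0, 1.67, 0 and 0% of cases. Without thinning, the share of ciliated nuclei with Dnah12 was 100% in RP1, RP2 and RPC1 and 94.7% in RPC2.

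Axoneme genes beyond the rule were read in nearly all ciliated nuclei. A list of 73 genes for outer and inner dynein arms, central pair and spokes, and nexin links and doublets holds 67 that are not in the rule, and a ciliated nucleus had transcripts of between 3 and 61 of these, with a median of 42. At least 10 of them were seen in 63 of the 64 ciliated nuclei and in 3485 of the 38190 others. The latter were 321, 336, 1687 and 1141 nuclei in the 4 animals, and these counts were not matched for depth. These 67 genes summed to 27806, 18184, 28459 and 19079 CPM, against 913, 889, 1472 and 1386 CPM in the other nuclei, which is 30.4, 20.5, 19.3 and 13.8 times as much. With the 6 rule genes of the list included the ratios were 38.6, 26.8, 28 and 19, and 37.4, 46.7, 32.4 and 23.4 without the deep nuclei.

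Of the 66 axoneme genes outside the rule with at least 10 transcripts in ciliated nuclei, 62 were higher there than elsewhere in all 4 animals and 43 were at least 10-fold higher in all 4. Over all 8123 genes with that many transcripts, 1449 (17.8%) were higher and 2412 (29.7%) lower in all 4 animals, and 304 (3.74%) were at least 10-fold higher in all 4. The median of the lowest fold among the 4 animals was 22.4 for these axoneme genes and 0.446 for all genes. The exception without a single transcript was Nme8, an outer arm gene, at 0 of 585948 transcripts, which allows 5.12 CPM (3 counts over the 4 animals).

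All 12 inner arm genes were higher in all 4 animals, 9 of them at least 10-fold, and 3 of the 12 (Dnah12, Dnah3 and Dnah6) are rule genes. Dnah10 was at 1218, 625, 611 and 468 CPM against 3.7, 3.08, 3.95 and 2.98 CPM, and Dnai3, an intermediate chain gene, at 870, 470, 509 and 422 CPM against 0.808, 1.57, 1.33 and 2.06 CPM. Dnah7b led less, with 623, 663, 815 and 439 CPM against 45.0, 107, 152 and 129 CPM, as did Dnah2 with a lowest fold of 6.92. Dnah7a, Dnah7b and Dnah7c are close copies, and reads may have been split between them.

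Outer arm genes showed the same pattern in 10 of 11 members. Dnah5 and Dnah9 encode heavy chains of the outer arm. Dnah5 was at 1116, 818, 1307 and 849 CPM in ciliated nuclei against 6.34, 9.23, 16.5 and 27.7 CPM. Dnah9 was at 1464, 856, 1578 and 907 CPM against 21.7, 16.7, 34.2 and 35.3 CPM. Dnal1, a light chain gene, was the weakest, with a lowest fold of 2.91.

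Central pair and spoke genes were higher in all 4 animals for 20 of 21 members, among them the rule genes Rsph1 and Spag16. Hydin, a large central pair protein, was at 1392, 695, 1069 and 676 CPM against 2.24, 3.19, 1.53 and 3.01 CPM. Spag17 was at 1450, 772, 1561 and 1173 CPM against 5.75, 4.73, 6.56 and 9.33 CPM. The exception was Rsph3a, at 72.5, 28.1, 33.9 and 80.9 CPM against 25.1, 21.9, 34.8 and 25.0 CPM, with its RPC1 value on 2 transcripts. Among nexin link and doublet genes 26 of 29 were higher throughout, and these include the rule gene Cfap44. Cfap100, Tekt1 and Drc7 were among them with lowest folds of 372, 259 and 163. The lead was small for Mns1, at 116, 119, 255 and 231 CPM against 91.8, 90.6, 158 and 175 CPM.

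**Figure D4:**
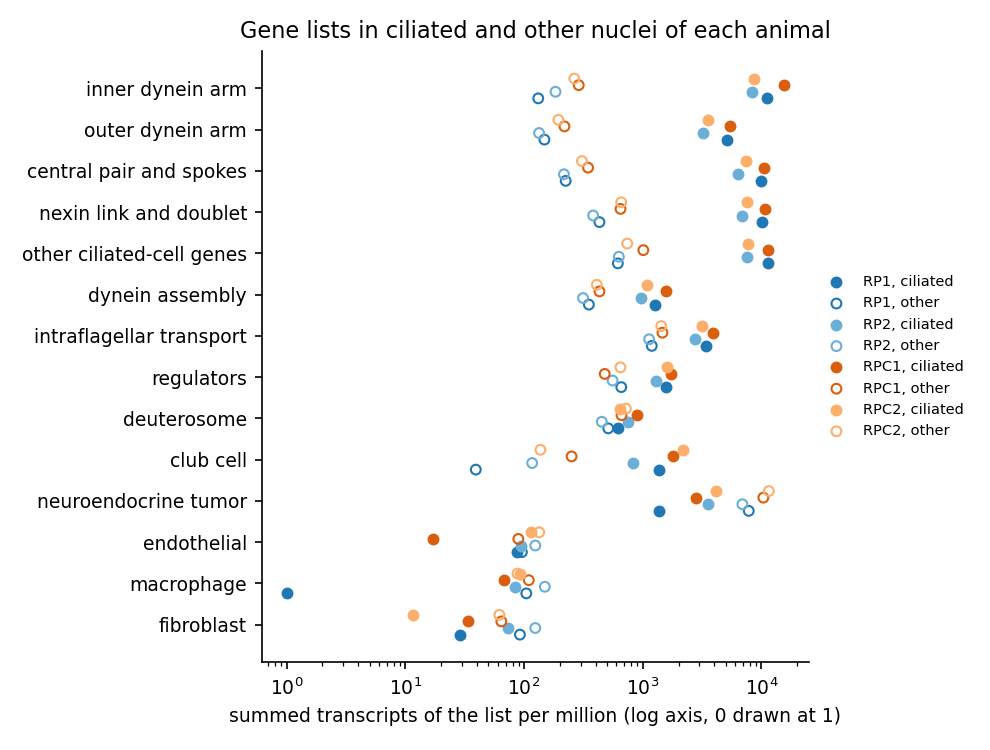
Summed CPM of 14 gene lists (horizontal axis, log scale, with 0 drawn at 1) in the ciliated nuclei (filled) and the other nuclei (open) of each animal. The 4 axoneme lists and the other ciliated-cell genes are separated by more than 10-fold, intraflagellar transport and regulators by 2 to 4-fold, and the neuroendocrine tumor list lies lower in ciliated nuclei. Rule genes, high by choice, are part of the inner arm, central pair and spoke, nexin link and doublet, other ciliated-cell and regulator lists.

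Intraflagellar transport genes, which build primary and motile cilia alike, differed less. Their sum of 22 genes was 2.2 to 2.85 times that of the other nuclei in the 4 animals, 15 of 22 were higher in all 4, and 0 were 10-fold higher. Ift88 was at 406, 246, 288 and 364 CPM against 35.8, 40.6, 45.9 and 44.7 CPM. Dynein assembly factors were higher in all 4 animals for 7 of the 9 with at least 10 transcripts. Dnaaf3 was at 304, 154, 153 and 63.6 CPM against 0.839, 0.627, 1.16 and 2.55 CPM.

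Among the regulators, 6 of the 8 with at least 10 transcripts were higher in all 4 animals, and these include the rule gene Foxj1, which is high by choice. Rfx2 stood at 377, 218, 339 and 260 CPM against 48.3, 43.5, 28.7 and 44.4 CPM, and Trp73, an upstream regulator of Foxj1, at 232, 309, 221 and 352 CPM against 77.5, 93.9, 63.8 and 83.9 CPM. Rfx3 led less, at 435, 418, 696 and 607 CPM against 349, 251, 219 and 366 CPM. Myb, a regulator of early steps, was at 87.0, 130, 119 and 168 CPM against 74.7, 70.6, 76.5 and 60.5 CPM. Mcidas had only 1, 1, 3 and 3 transcripts in the ciliated nuclei of the 4 animals, Gmnc 1, 0, 0 and 1, and Foxn4 0, 6, 0 and 1.

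Deuterosome genes had no common direction. Their sum was 1.22, 1.67, 1.36 and 0.897 times that of the other nuclei, and 1.16, 3.31, 1.57 and 1.07 times without the deep nuclei. Of the 11 with at least 10 transcripts, 3 were higher and 5 lower in all 4 animals. Ccdc78 had a large lead, at 188, 200, 272 and 86.7 CPM against 0.466, 0.712, 0.653 and 0.567 CPM. Deup1, the main deuterosome scaffold, was at 14.5, 77.2, 50.9 and 98.2 CPM against 33.4, 32.3, 95.9 and 57.6 CPM, without a common direction. A single nucleus of RP2, of 2405 transcripts, held 28 of the 29 Cdc20b and 10 of the 22 Deup1 transcripts of the ciliated nuclei of its animal, and 2 of their 6 Foxn4 transcripts. It had 8 rule genes and transcripts of 37 further axoneme genes.

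Another nucleus fitted the name poorly. This RPC2 nucleus of 1444 transcripts met the rule with 8 rule genes, 7 of them on 1 transcript each and Foxj1 on 2, but had only 3 further axoneme genes, the fewest of the 64. It held 11 Scgb1a1 and 6 Muc5b transcripts, both genes of secretory cells, and these and other club genes made up 1.25% of its transcripts.

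Among the genes outside the rule with at least 10 transcripts in the ciliated nuclei of each animal, 880 in all, the 20 with the largest lowest fold over the 4 animals were Zfp474, Cfap65, Gm12695, C230072F16Rik, Cdhr3, Lrrc43, Cfap100, Spata18, Hoatz, BC051019, Rp1, Tekt1, AU040972, Lrrc36, Ect2l, Lrrc74b, Lrriq1, Spef2, Hydin and Lrrc71. Their lowest fold ran from 217 to 813. Zfp474 led with 232, 116, 238 and 185 CPM against 0.217, 0.142, 0.142 and 0.213 CPM. Cfap65, a protein of the axoneme, stood at 986, 663, 730 and 485 CPM against 0.746, 1.17, 0.582 and 0.798 CPM. Cdhr3, a cadherin of ciliated cells known as a rhinovirus C receptor, stood at 768, 551, 832 and 572 CPM against 1.12, 1.28, 0.752 and 1.03 CPM. Rp1, a microtubule protein best known from photoreceptors, stood at 739, 607, 832 and 612 CPM against 1.46, 2.22, 1.18 and 1.77 CPM. Of the 20 genes, 6 were in one of the lists of cilium genes used here, and the rule for leading genes ranks folds, so all 20 are high by choice.

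Markers of other cell types were checked in the same sums. The neuroendocrine tumor list of 14 genes was at 17.4, 51.3, 27.0 and 36.2% of its level in the other nuclei of RP1, RP2, RPC1 and RPC2, and at 13.4, 24.8, 21.2 and 30.4% without the deep nuclei. Endothelial nuclei had it at 40.9 to 59.9%. All 11 listed markers with at least 10 transcripts were lower in all 4 animals. Proliferation genes were at 38.5, 62.0, 74.1 and 51.1%, and at 26.6, 22.4, 51.3 and 46.6% without the deep nuclei.

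Club cell genes, in contrast, were raised. Scgb1a1, the secretoglobin of club cells, was at 522, 333, 730 and 636 CPM in ciliated nuclei against 8.11, 36.6, 103 and 63.6 CPM, and 35 of 64 nuclei held a transcript. Cyp2f2 was at 174, 147, 390 and 208 CPM against 4.54, 14.3, 22 and 10.6 CPM, and Cbr2 at 449, 253, 526 and 942 CPM against 8.48, 29.1, 23.7 and 34.2 CPM. The list of 10 genes summed to 1377, 832, 1782 and 2173 CPM against 39.2, 117, 252 and 137 CPM, and 5 ciliated nuclei, all of RPC2, also met the same kind of rule with club genes. The part of free secretory RNA in these values was not tested. In nuclei thinned to 1000 transcripts, Scgb1a1 was in 22.2, 14.3, 14.3 and 42.1% of ciliated nuclei, in 0.631, 2.33, 5.6 and 5.7% of the others and in 0, 3.33, 7.94 and 6.32% of endothelial nuclei.

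Lists of other lung cell types gave mixed values. Krt5, Krt14 and Krt15 of basal cells and Foxi1 of ionocytes were at 0 of 585948 transcripts, which allows 5.12 CPM each. The whole basal list of 8 genes summed to 87.0, 70.2, 33.9 and 46.2 CPM against 23.3, 24, 15.1 and 19.1 CPM. Of these sums Icam1, a gene of many cell types, gave 43.5, 56.1, 33.9 and 40.4 CPM. Without the deep nuclei the basal list was at 0, 14.4, 48.4 and 85.6 CPM, on 0, 1, 2 and 6 transcripts, and thus no longer higher in the RP animals. Mesothelial genes summed to 116, 21.1, 67.9 and 86.7 CPM against 10.7, 18.7, 20.8 and 10.4 CPM, with Krt19, a keratin of many epithelia, at 87.0, 21.1, 67.9 and 57.8 CPM and Msln, Upk3b and Wt1 at 0 transcripts. Genes of the alveolar types AT2 and AT1 were at 0.951 to 2.99 and at 0.564 to 1.80 times their level in the other nuclei. Without the deep nuclei the ranges were 0.730 to 3.34 and 0.572 to 1.73, with AT1 in RP2 at 0.896 times. T cell genes were at 0.225 to 0.502 times their level in the other nuclei, and B cell genes at 2.77, 0.795, 0 and 1.46 times. Without the deep nuclei T cell genes were at 0.0835 to 0.284 times and B cell genes at 0.271, 1.45, 0 and 0.986 times. Macrophage genes summed to 0 to 92.4 CPM, fibroblast genes to 11.6 to 73.7 CPM and muscle genes to 0 to 33.9 CPM. Endothelial genes were at 87.0, 94.7, 17.0 and 116 CPM, against 7520 to 10998 CPM in endothelial nuclei. Rules of the same kind were also applied with the endothelial, macrophage, fibroblast, muscle, T cell, B cell, AT2 and AT1 lists. Of the ciliated nuclei 2, both of RP2, met 1 or more of them. No such rule was applied with the neuroendocrine tumor list, so nuclei mixed with tumor nuclei are not counted here. The ribosomal RNA gene Rn18s-rs5 took 17.0, 12.3, 4.15 and 7.76% of the transcripts of ciliated nuclei against 9.97, 8.46, 3.09 and 5.34% of the others, and was thus lower in both RPC than in both RP animals in either class.

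RPC was compared with RP within the ciliated nuclei, to ask whether they differ in animals labelled as lacking Casp8. RPC1 had only 7 ciliated nuclei, under the minimum of 10, and was dropped from the fit, which leaves 2 RP animals against RPC2 alone and assumes that this lone animal varies like the others. Of 4886 genes tested, edgeR called 0 (0%) at an adjusted p under 0.05, with a smallest adjusted p of 0.763, and 107 genes had an unadjusted p under 0.05. DESeq2 likewise called 0 genes, with 15 at an unadjusted p under 0.05. With all 4 animals, 0 of 2927 genes (0%) were called by edgeR, with a smallest adjusted p of 0.0719. The count depended on the nuclei and animals used: without deep nuclei 32 of 2025 genes (1.58%) were called, of which 11 were higher in RPC. With all 4 animals but without RP1, RP2 or RPC2 the counts were 30, 27 and 4.

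None of the 66 axoneme genes tested was called, and their median log2 fold change was -0.44, against -0.02 over all genes tested. Without deep nuclei 2 of 60 were called, both lower in RPC, with a median of -0.59, and with all 4 animals but without RP2 2 of 56 were called. That direction rests on single animals, since the median was -0.25 with all 4 animals and 0.13 when RP1 was left out of those. These tested genes, and the sums that follow, include the rule genes of the list, which helped to choose the nuclei. Over all ciliated nuclei the summed axoneme level alternated between genotypes, as RPC1 was highest (42035 CPM, RP1 36113) and RP2 lowest. Outside the rule the order was the same, but RPC1 (28459 CPM) lay close to RP1 (27806), and RPC2 (19079) to RP2 (18184). With the rule genes kept, the order moved without the deep nuclei. RPC1 stayed highest there at 48717 CPM, followed by RP2 at 42763 and RP1 at 35054. RPC2 was then lowest at 33395 CPM. For intraflagellar transport genes the median log2 fold change was -0.17. For the 22 other ciliated-cell genes, which include the rule genes Ccdc153 and Zbbx, it was -0.56.

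The 5 genes with the smallest p in each direction are named with their values, none of them past the adjusted threshold (edgeR). Higher in RPC were Kcnip4, Col23a1, Fmo2, Bmpr1b and Scgb3a1. Fmo2, a monooxygenase of airway epithelium, had 58.0 and 24.6 CPM in RP1 and RP2 and 170 and 214 CPM in RPC1 and RPC2. Its log2 fold change was 2.44 ± 0.76 SE in the fit without RPC1. With all 4 animals it was 2.30 ± 0.61 SE (edgeR, adjusted p = 0.26). The other nuclei had Fmo2 at 5.81 and 26.9 CPM in RP and 119 and 59.0 CPM in RPC. Bmpr1b, a bone morphogenetic protein receptor, was at 101 and 28.1 CPM in RP and 238 and 266 CPM in RPC. Its log2 fold change was 2.20 ± 0.70 SE in the fit without RPC1. With all 4 animals it was 2.12 ± 0.59 SE (edgeR, adjusted p = 0.30). Its level in the other nuclei was 7.67, 16.7, 25.7 and 13.3 CPM. Kcnip4, which encodes a protein that modulates potassium channels, was at 14.5, 256, 390 and 1000 CPM on 1, 73, 23 and 173 transcripts. In the other nuclei Kcnip4 was at 72.1, 505, 610 and 719 CPM, and thus also higher in both RPC animals. Scgb3a1, a secretoglobin, was at 14.5, 21.1, 50.9 and 144 CPM on 1, 6, 3 and 25 transcripts. In the other nuclei Scgb3a1 was at 2.14, 7.95, 35.3 and 9.49 CPM, again higher in both RPC animals.

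Lower in RPC were Col27a1, Oas2, Pabpc4, Gm30835 and Iqch. Oas2, an interferon-induced gene, was at 246 and 109 CPM in RP and 67.9 and 17.3 CPM in RPC. Its log2 fold change was -3.38 ± 0.94 SE in the fit without RPC1. With all 4 animals it was -2.53 ± 0.72 SE (edgeR, adjusted p = 0.30). Of the 15 genes of an interferon list without Oas2, 3 were tested and 0 called. Iqch was at 130, 70.2, 17.0 and 5.78 CPM on 9, 20, 1 and 1 transcripts. Pabpc4 and Gm30835 were also lower in the other nuclei of both RPC animals, Pabpc4 with 525 and 332 CPM in RP and 24.1 and 35.4 CPM in RPC, and Gm30835 with 311 and 475 CPM in RP and 9.49 and 13.0 CPM in RPC. Col27a1 had 12 and 13 transcripts in RP and 0 in RPC1 and RPC2. Without deep nuclei, Kcnip4, Col23a1, Fmo2, Bmpr1b, Col27a1 and Oas2 passed the adjusted threshold of edgeR in the same directions, Scgb3a1 and Pabpc4 did not, and Gm30835 and Iqch were not tested.

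Outside the ciliated nuclei, the axoneme sum was higher in both RPC than in both RP animals. The 73 genes summed to 936 and 916 CPM in RP1 and RP2 and to 1504 and 1426 CPM in RPC1 and RPC2, with means of 926 ± 13.9 and 1465 ± 55.0 CPM (SD, n = 2 each). The groups did not overlap, at a ratio of 1.58, and the two-sided exact permutation test gave p = 0.333, the smallest this design allows. The rule genes took little part, since without them the sums were 913, 889, 1472 and 1386 CPM.

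Of the 65 axoneme genes with at least 100 transcripts in the other nuclei, 36 (55.4%) lay higher in both RPC than in both RP animals and 7 (10.8%) lower. Among all 18162 genes with that many transcripts the percentages were 30.2 and 21.9, so that RPC was more often higher in general. The median log2 ratio of the RPC to the RP mean was 0.51 for the axoneme genes and 0.07 for all. Mns1 and Dnah7b, both named above for a smaller lead in ciliated nuclei, made up 14 and 12% of the difference. Dnah7a showed a larger ratio, with 3.95 and 6.07 CPM in RP and 35.0 and 37.6 CPM in RPC. The other nuclei of RPC were also deeper, with medians of 3390.5 and 2765 transcripts against 2254 and 2216.5 in RP. In the same nuclei the neuroendocrine tumor list was also higher in RPC (7811 and 6903 CPM in RP, 10366 and 11535 CPM in RPC), as was the proliferation list (2633 and 2183 CPM in RP, 3067 and 3586 CPM in RPC), and Rn18s-rs5 took a smaller part of the transcripts, as given above. Endothelial nuclei had the 73 axoneme genes at 489 and 457 CPM in RP and at 1095 and 858 CPM in RPC. The part of depth, tumor content and Rn18s-rs5 in the difference was not tested.

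**Figure D5:**
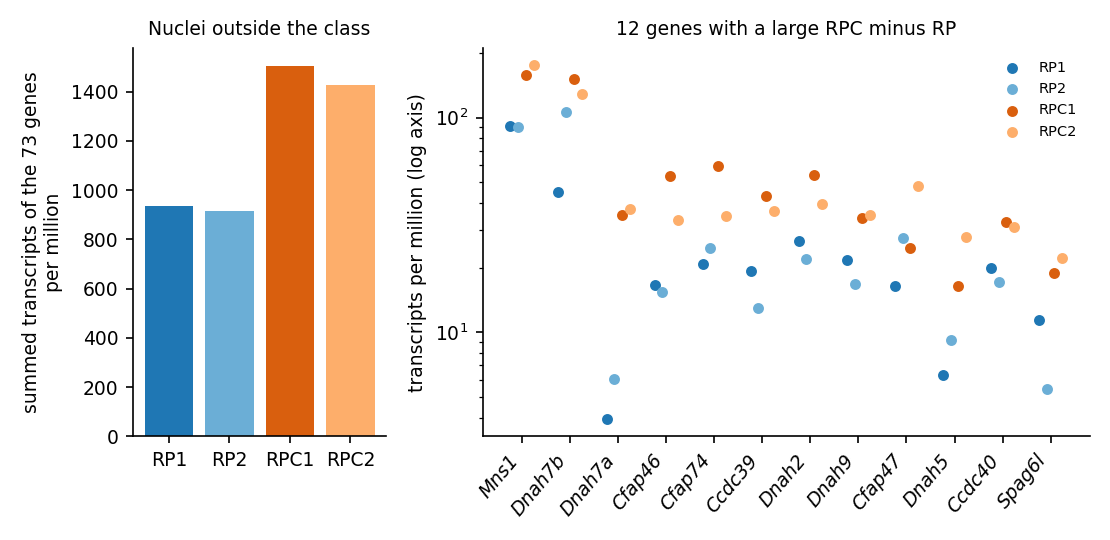
Left, summed CPM of the 73 axoneme genes in the nuclei outside the ciliated class of each animal (bars from 0). Right, CPM of 12 of these genes, chosen among those with the largest differences between RPC and RP means (log scale, 1 point per animal). Both RPC bars are higher than both RP bars, 1504 and 1426 against 936 and 916 CPM.

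Whether a genotype difference differed between ciliated and other nuclei was tested in 1 fit over the 8 sums with the animal as a block. Of 18327 genes, edgeR called 2 (0.0109%), Zbbx and Elmod1, while DESeq2 called 0. Zbbx, a zinc finger gene of ciliated cells and a rule gene, was at 478, 246, 373 and 254 CPM in the ciliated nuclei, and at 1.74 and 2.34 CPM in the other nuclei of RP and 12.5 and 10.7 CPM in those of RPC. The difference of the log2 fold changes was -2.72 ± 0.57 SE (adjusted p = 0.0368), but Zbbx helped to choose the nuclei. Elmod1 was at 377, 123, 272 and 110 CPM in ciliated nuclei and at 1.12, 1.25, 31.2 and 1.53 CPM in the others, so that only RPC1 stood apart (difference -3.03 ± 0.66 SE, adjusted p = 0.039). Without RPC1 the count was 0.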

How the data were processed

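Single nuclei of 4 tumors were barcoded with the Parse Evercode chemistry, and the authors deposited 1 table of transcript counts per animal, counted by gene after alignment to GRCm39 according to the submitters' processing notes. The counts were not normalized. A count is a transcript, after the Parse pipeline of the authors had collapsed reads with 1 molecular identifier.

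Nuclei were kept with at least 300 transcripts, at most 10% mitochondrial counts and at most 12000 genes. The ciliated class, the gene lists and the tests were chosen with earlier results of these data known. Counts were summed per animal. RPC was compared with RP by edgeR 4.0.16 (quasi-likelihood, TMM, Benjamini-Hochberg adjustment) in animals with at least 10 ciliated nuclei, which dropped RPC1. DESeq2 1.42.0 was an alternative, and fits with all 4 animals were added after seeing the data. The interaction fit used both classes of all 4 animals with the animal as a block. Single values were compared by exact permutation over animals. The p-values measure the spread between these animals only.

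The named genes were the 5 with the smallest p in each direction and the 20 with the largest lowest fold over the 4 animals; other genes come from the lists or, for Elmod1, from the interaction fit. On simulated data 124 of 183 changed genes were called with 3 animals, beside 6 unchanged genes, among 4434 genes. The simulated counts were set to vary less between animals than the measured ones, and only large changes were planted. They therefore give no detection rate for the measured counts. The power of the same fit on the measured counts was not tested. There the common biological coefficient of variation was 0.349. The deviations of same-numbered animals correlated at 0.25 in ciliated nuclei and at -0.10 in the others, and the labels tie no number to a shared litter or day, so the animals were not treated as pairs. With 2 pairs this does not show that no pairing exists. Promoters came from RefSeq (GRCm38.p6) and were matched by symbol. No doublet caller was run. Single values of some listed genes are not reported here, and those genes stay in the sums and counts of their lists.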

Additional observations from a re-analysis of the deposited data

Results flagged for a closer look

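For 2 genes the RPC against RP change differed between ciliated and other nuclei in a test of that difference (edgeR, interaction of class and genotype, 18327 genes tested). Zbbx is a rule gene that helped to choose the ciliated nuclei, so its test is not independent of the choice. For it the log2 difference, ciliated minus other, was -2.72 (adjusted p = 0.0368). Zbbx was lower on average in the ciliated nuclei of RPC (373 and 254 CPM against 478 and 246 CPM in RP) and higher in the other nuclei of both RPC animals (12.5 and 10.7 CPM against 1.74 and 2.34 CPM). For Elmod1 the log2 difference was -3.03 (adjusted p = 0.039), and 31.2 CPM in the other nuclei of RPC1 stood against 1.12 to 1.53 CPM in the other animals. Without RPC1 the difference for Elmod1 was -1.44 (adjusted p = 1.0), and without RP1 it was -2.41 (adjusted p = 1.0). That for Zbbx lost its call without RP1 (-2.25, adjusted p = 0.49), RPC1 (-2.94, adjusted p = 0.354) or RPC2 (-2.74, adjusted p = 1.0). DESeq2 called neither gene.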

How the results depend on the processing

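The share of ciliated nuclei, RPC minus RP, ran from -0.190 to 0.00614 percentage points when 1 animal was left out, and turned without RP2 (0.00614). It was -0.0918 with the replicate block. The axoneme transcripts outside the class stayed higher in RPC under all 8 alternatives run, by 499 to 577 CPM without 1 animal and by 538 CPM with the replicate block. The count of genes called between RPC and RP in ciliated nuclei was 0 under 7 alternatives, 32 without deep nuclei, 4 by DESeq2 with 4 animals and 33 with 4 animals and the replicate block (0 with the numbers crossed), and ran from 4 to 30 when 1 of the 4 animals was left out (30 without RP1, 27 without RP2 and 4 without RPC2). The cause was not tested. With 3 animals, leaving out RP1 or RP2 left no residual degrees of freedom. The interaction count of 2 became 0 with DESeq2 and ran from 0 to 3 when 1 animal was left out. Of the 10 genes named for their smallest p, and Zbbx and Elmod1, none changed direction under the alternatives that tested it. The 64 nuclei and 4 animals limit every comparison of genotypes: 2 against 2 animals cannot reach an exact p under 0.333, and in RPC1 a gene with 0 transcripts may lie at up to 50.9 CPM (3 counts).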
